A study of Homo sapiens with 9 samples.

Results

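CSF1, CSF2 and CSF3 encode the macrophage, granulocyte-macrophage and granulocyte colony-stimulating factors. They are 3 of 60675 genes in a table of gene-level TPM values (transcript abundances scaled for length and to a fixed total per library) from MDA-MB-231 cells, and all 3 were among the 13866 genes tested, those that reached 1 TPM in 3 or more of the 9 libraries. The 3 genes were chosen by symbol, with their values in the 9 libraries and their opposite directions between groups already known. Their own levels and differences are therefore given as a description, with no test.

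MDA-MB-231 is an established human breast cancer cell line of the triple-negative, mesenchymal-like kind. Recipient cells of this line received small extracellular vesicles (sEVs), the membrane-bound particles that cells release, from donor cells of the same line. In the TIS sEV group (n = 3) the donors had been exposed to nocodazole, a microtubule poison, at 100 ng/ml for 72 h and then kept without it for 72 h in medium depleted of vesicles; TIS stands for therapy-induced senescence. In the Cont sEV group (n = 3) the donors had received DMSO, and in the No sEV group (n = 3) the recipients got no vesicles. All recipients were incubated for 72 h in 5% vesicle-depleted medium, and vesicles were collected from conditioned medium by differential centrifugation. An effect of donor senescence and any other effect of nocodazole on the donors cannot be told apart in this design. Whether the 3 replicates of a group came from separate cultures is not stated, so the p-values speak to the spread among these libraries alone, and that spread may be technical.

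The 3 factors are secreted cytokines that drive the growth, survival and differentiation of myeloid cells. CSF1 acts through the receptor tyrosine kinase CSF1R, which supports macrophages, and is made partly as a membrane-bound form that proteases shed. CSF2 acts through the α chain CSF2RA paired with the β chain CSF2RB, which the IL-3 and IL-5 receptors share, and CSF3 acts through CSF3R on the neutrophil lineage. Tumour cells can make all 3, and inflammatory signals such as IL-1 and TNF raise CSF2 and CSF3 through NF-κB and AP-1 factors and through slower decay of their mRNAs, which carry AU-rich elements.

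Those elements set the 3 transcripts apart from each other before any comparison of samples, so the densest stretch of each is shown. The window of 30 bases with the most ATTTA pentamers was read from the longest annotated 3′UTR of each gene (GENCODE 29, GRCh38, plus strand, 5′ to 3′). Capitals mark ATTTA, and overlapping copies were counted separately, on the transcript strand only. The CSF1 window lies at chr1:109930918-109930947, the CSF2 window at chr5:132076077-132076106 and the CSF3 window at chr17:40016979-40017008.
CSF1: aaagtcATTTAaatatctATTTAaaagata
CSF2: aaatATTTATTTATTTATTTATTTAagttc
CSF3: atgtATTTAtctctATTTAatATTTAtgtc

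CSF2 held 8 ATTTA copies in a 3′UTR of 318 bases, which is 25.2 per kilobase. Of 1640 genes with a 3′UTR at most 25% longer, or shorter by the same ratio, 0.122% had as many. CSF2 also held 3 copies of the nonamer TTATTTATT, which contains ATTTA and marks the strongest AU-rich elements; 0.69% of 19124 genes had at least that number and 8.16% had any. CSF3 held 7 ATTTA copies in 854 bases, a number reached by 2.42% of 2401 genes of like length, and CSF1 held 4 in 2154 bases, reached by 58.3% of 2680. Neither CSF3 nor CSF1 held the nonamer. The 3′UTR used is an annotated one, and which isoforms these cells make was not measured.

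**Figure D1:**
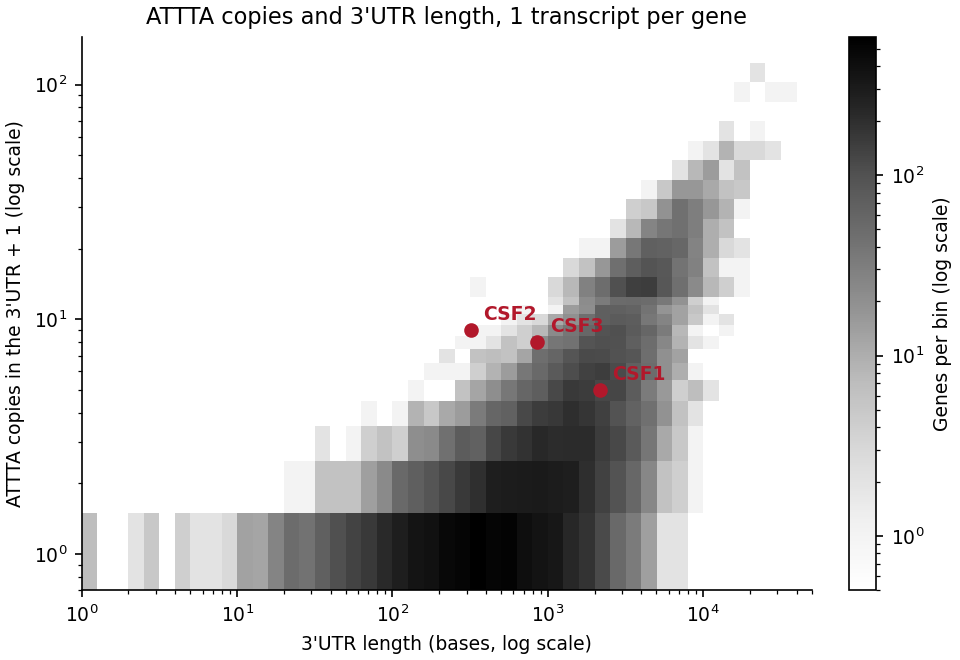
Number of ATTTA copies plus 1 (log axis) against 3′UTR length in bases (log axis) for 19124 genes, 1 transcript per gene, with grey bins shaded by the number of genes and red points for the 3 factors. CSF2, with 8 copies in 318 bases, lies above the grey mass at its length, CSF3 near its upper edge and CSF1 within it.

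All 3 genes were well expressed. Averaged over the 9 libraries, CSF2 stood at 366 TPM and ranked 370 among the genes tested, CSF1 at 330.3 TPM ranked 428, and CSF3 at 104 TPM ranked 1617. TPM is scaled for transcript length, so these levels can be set side by side. Reads of the 3 genes could hardly be shared with others: of 31-base stretches of the annotated transcripts, 2 of 5494 of CSF1 were shared with another gene (LSM14A), and none of 757 of CSF2 or 2356 of CSF3.

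CSF1 (ENSG00000184371.14; chr1:109910242-109930992, plus strand, protein-coding) was lower with TIS sEV than in either other group. The TIS sEV libraries had 294, 291 and 301 TPM, the Cont sEV libraries 350.5, 350.3 and 369.9 TPM, and the No sEV libraries 347, 325 and 344 TPM. All 3 TIS sEV libraries lay below all 6 others, and the 3 Cont sEV libraries lay above the 3 No sEV libraries. The group means were 295 ± 4.83 TPM with TIS sEV, 357 ± 11.3 TPM with Cont sEV and 339 ± 12.1 TPM with No sEV (SD, n = 3 each). The fitted log2 fold change was −0.27 (SE 0.0333) for TIS sEV against Cont sEV, a mean 17.3% lower, and −0.20 for TIS sEV against No sEV, 12.8% lower. For Cont sEV against No sEV it was 0.08. Among the genes tested, 97.7% had a higher log2 fold change than CSF1 between TIS sEV and Cont sEV.

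CSF2 (ENSG00000164400.6; chr5:132073790-132076170, plus strand, protein-coding) went the other way and was higher with TIS sEV. It stood at 397, 392 and 378 TPM in the TIS sEV libraries, against 356, 362 and 346 TPM with Cont sEV and 358, 352 and 349 TPM with No sEV. The 3 TIS sEV libraries lay above the 6 others, while Cont sEV and No sEV overlapped. The means were 389 ± 10.1 TPM with TIS sEV, 355 ± 7.91 TPM with Cont sEV and 353 ± 4.33 TPM with No sEV (SD, n = 3 each). The log2 fold change was 0.13 (SE 0.0276) for TIS sEV against Cont sEV, a mean 9.69% higher, and 0.14 for TIS sEV against No sEV, 10.1% higher. It was 0.01 for Cont sEV against No sEV. Of the genes tested, 12.9% had a higher log2 fold change between TIS sEV and Cont sEV than CSF2.

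CSF3 (ENSG00000108342.13; chr17:40015361-40017813, plus strand, protein-coding) was highest with Cont sEV, as CSF1 was, but its TIS sEV and No sEV libraries overlapped. Its level was 104, 95.1 and 103 TPM in the TIS sEV libraries, 109, 115 and 113 TPM in the Cont sEV libraries, and 100.5, 96.6 and 100.6 TPM in the No sEV libraries. All 3 Cont sEV libraries were above all 6 others, and the TIS sEV libraries spanned the No sEV range. Means were 101 ± 4.99 TPM with TIS sEV, 112 ± 3.25 TPM with Cont sEV and 99.3 ± 2.31 TPM with No sEV (SD, n = 3 each). The log2 fold change was −0.16 (SE 0.0409) for TIS sEV against Cont sEV, a mean 10.3% lower, 0.02 for TIS sEV against No sEV, and 0.18 for Cont sEV against No sEV, 13.3% higher. The value of 0.02 turned to −0.01 when libraries were rescaled by median of ratios.

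**Figure D2:**
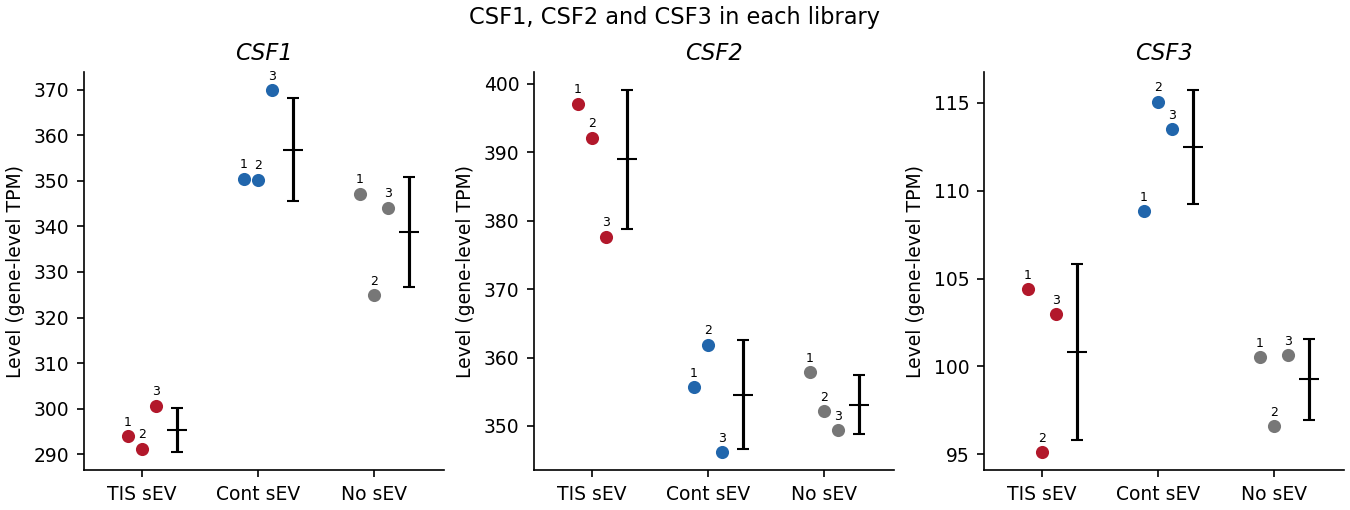
Gene-level TPM of CSF1, CSF2 and CSF3 in each library (points, numbered by replicate), with the mean and SD of each group (n = 3) beside them; the vertical axes do not start at 0 and differ between panels. The TIS sEV points lie below all others for CSF1 (291 to 301 TPM), above all others for CSF2 (378 to 397 TPM), and below the Cont sEV points for CSF3 (95.1 to 104 TPM).

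Between TIS sEV and Cont sEV, 1 of the 3 genes was higher and 2 were lower in every library, against 10.9% and 4.47% of all genes tested, or 15.4% in either direction. By limma, with Benjamini-Hochberg adjustment across all genes tested, 13 genes (0.0938%) passed in that comparison, 6 higher (0.0433%) and 7 lower (0.0505%). Between TIS sEV and No sEV, 1 of the 3 was higher and 1 lower in every library, against 11.3% and 2.77% of genes, 14.1% in all, and 1 gene passed the test (0.00721%), which was lower. Between Cont sEV and No sEV, 2 of the 3 were higher in every library and none lower, against 6.73% and 4.48% of genes, 11.2% in all. No gene passed there (0%) by limma, and 836 of the 13866 genes tested had an unadjusted p under 0.05. The same count was 1387 for TIS sEV against Cont sEV and 1105 for TIS sEV against No sEV. Since the values of these comparisons chose the 3 genes, nothing is read from their counts. The 3 comparisons also share libraries, so they are not independent of each other.

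The opposite directions of CSF1 and CSF2 are easiest to see as a ratio within each library, which no scaling of libraries can alter. The TPM ratio of CSF2 to CSF1 was 1.35, 1.35 and 1.26 in the TIS sEV libraries, 1.01, 1.03 and 0.936 in the Cont sEV libraries, and 1.03, 1.08 and 1.02 in the No sEV libraries. CSF2 mRNA exceeded CSF1 mRNA in each TIS sEV library and was near parity with it in the other 6. The ratio averaged 1.32 ± 0.0534 in the TIS sEV group, 0.995 ± 0.0517 in the Cont sEV group and 1.04 ± 0.0361 in the No sEV group (SD, n = 3 each).

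CSF2 also gained on CSF3: the CSF2 to CSF3 ratio was 3.86 ± 0.233 in the TIS sEV group, 3.15 ± 0.109 in the Cont sEV group and 3.56 ± 0.0872 in the No sEV group (SD, n = 3 each). These ranges did not overlap, although the highest No sEV library (3.65) came close to the lowest TIS sEV library (3.67). The CSF3 to CSF1 ratio was 0.355, 0.327 and 0.343 in TIS sEV libraries, 0.311, 0.329 and 0.307 in Cont sEV libraries, and 0.290, 0.297 and 0.292 in No sEV libraries. Here TIS sEV and Cont sEV overlapped and both lay above No sEV.

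Between the TIS sEV group and either other group, the makeup of the 3 factors shifted more than their sum. The summed TPM of CSF1, CSF2 and CSF3 was 795, 778 and 781 in the TIS sEV libraries, 815, 827 and 829.6 in the Cont sEV libraries, and 806, 774 and 794 in the No sEV libraries. TIS sEV and No sEV overlapped in that sum and Cont sEV lay above both. CSF1 made up on average 37.6% of the sum in the TIS sEV group, 43.3% in the Cont sEV group and 42.8% in the No sEV group. CSF2 made up 49.5%, 43.04% and 44.6% in the same groups, and CSF3 12.8%, 13.6% and 12.5%.

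**Figure D3:**
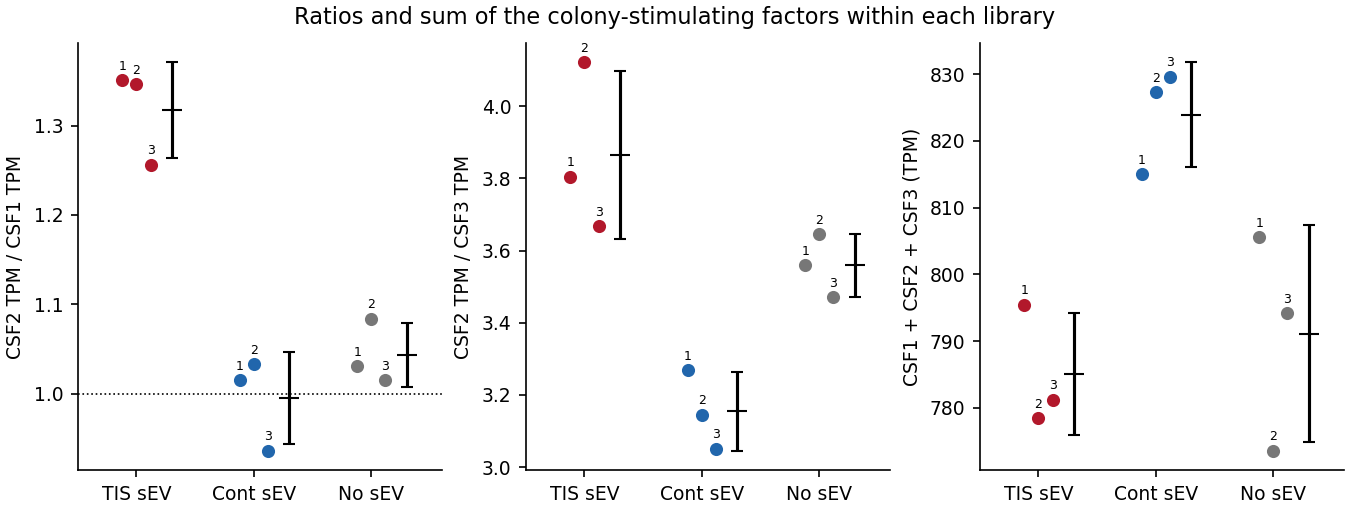
The CSF2 to CSF1 TPM ratio, the CSF2 to CSF3 TPM ratio and the summed TPM of the 3 factors in each library (points, numbered by replicate), with the mean and SD of each group (n = 3); the dotted line marks equal CSF2 and CSF1 TPM, and the axes do not start at 0. The CSF2 to CSF1 ratio is 1.26 to 1.35 with TIS sEV and 0.936 to 1.08 in the 6 other libraries.

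The libraries resembled each other closely. Across genes, Pearson's r between libraries was 0.992 to 0.994, both within and between groups, and no pair of libraries was identical. Between 21292 and 21975 genes per library were above 0, each library summed to 1000000 TPM, and read depth is unknown because TPM does not keep it. Mitochondrially encoded transcripts took 2.07% to 2.52% of the TPM in TIS sEV libraries, 2.58% to 3.39% in Cont sEV libraries and 2.47% to 2.92% in No sEV libraries. With those transcripts left out, the log2 fold changes for TIS sEV against Cont sEV were −0.28 for CSF1, 0.12 for CSF2 and −0.17 for CSF3.

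Lists of cell type markers were set beside the label of the cells. The list for mesenchymal-like breast cancer cells held 7 genes: VIM, CD44, AXL, EGFR and the keratin genes KRT8, KRT18 and KRT81. Keratins are epithelial, so the sum of the 7 is not of mesenchymal genes alone. The 7 summed to 3961 to 4034 TPM with TIS sEV, 3813 to 3891 TPM with Cont sEV and 3816 to 3899 TPM with No sEV. In 5 of the 7 every TIS sEV library lay above every Cont sEV library and in none below, and all genes tested showed 10.9% and 4.47%. None of the 7 passed the test (smallest adjusted p = 0.227, limma with Benjamini-Hochberg adjustment). VIM, which encodes the mesenchymal filament vimentin, averaged 2285 TPM with TIS sEV, 2221 TPM with Cont sEV and 2239.6 TPM with No sEV, and the adhesion receptor gene CD44 averaged 504, 457 and 445 TPM in the same groups. The list for luminal breast epithelium also held 7 genes: ESR1, PGR, ERBB2, GATA3, FOXA1, CDH1 and EPCAM. Of these, 4 stayed under 1 TPM in every library and 3 were expressed enough to test. The 7 summed to 54 to 59.3 TPM with TIS sEV, 53.1 to 54.5 TPM with Cont sEV and 53.3 to 56.9 TPM with No sEV. ESR1, PGR and CDH1 stayed at or below 0.22, 0.0502 and 0.577 TPM in every library. EPCAM ranged over 21.1 to 25.9 TPM and ERBB2 over 26.2 to 30.7 TPM. Of 12 myeloid markers, 9 stayed under 1 TPM in every library, and FCGR3A, MPO and ELANE were listed at 0 in all 9. The 12 summed to 155 to 164 TPM with TIS sEV, 150.3 to 164 TPM with Cont sEV and 154 to 158 TPM with No sEV, nearly all of it CD68 (146 to 160.5 TPM). All 6 lymphocyte markers stayed under 1 TPM. The 6 fibroblast markers summed to 8.82 to 12.2 TPM with TIS sEV, 8.34 to 9.79 TPM with Cont sEV and 9.55 to 10.7 TPM with No sEV, most of it COL1A1, and the 5 endothelial markers to 6.92 to 8.11, 7.1 to 9.33 and 7.37 to 7.82 TPM in the same groups. What part other cells had in the values of the 3 factors was not tested. In bulk RNA, fewer cells that make a transcript and less of it per cell cannot be told apart.

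Of the 6 receptor genes of the 3 factors, IL-3 and IL-5, 5 stayed under 1 TPM in every library and CSF2RA did not. CSF3R, and IL3RA, the α chain for IL-3, were listed at 0 in all 9 libraries. CSF2RB ranged up to 0.0148 TPM, IL5RA up to 0.0652 TPM, and CSF1R lay between 0.203 and 0.978 TPM. CSF2RA was the only one of the 6 receptor genes to reach the filter for testing. It stood at 9.44, 10.3 and 10.7 TPM in the TIS sEV libraries, 11.97, 8.99 and 11.7 TPM in the Cont sEV libraries, and 11.1, 10.5 and 12.4 TPM in the No sEV libraries, which overlapped throughout. Its log2 fold change for TIS sEV against Cont sEV was −0.08 (adjusted p = 0.837, limma with Benjamini-Hochberg adjustment). CSF2RA lies in the region that X and Y share and has a row for each copy; single rows ran from 0 to 11.97 TPM, so the rows were summed. The cells thus held transcripts for the α chain of the CSF2 receptor with its β chain near 0.

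The genes around the 3 factors were gathered in lists by role, chosen with results of these data known. No gene of any list passed the adjusted threshold in any of the 3 comparisons (IL11 and JUN did between TIS sEV and Cont sEV where the filter was raised to 5 TPM), so each list is given by its values, counts and median. The median log2 fold change of all genes tested was 0.02 for TIS sEV against Cont sEV and 0.03 for TIS sEV against No sEV, and 59.7% and 66.7% of them were positive.

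Among 14 other haematopoietic growth factor genes, 6 were expressed enough to test, and 5 of those 6 had a positive log2 fold change for TIS sEV against Cont sEV (median 0.07). IL11, an IL-6 family cytokine that supports megakaryocytes, came closest to the threshold. It stood at 355, 345 and 369 TPM in the TIS sEV libraries, against 319, 307 and 295 TPM with Cont sEV and 336, 327 and 331 TPM with No sEV. The TIS sEV libraries lay above both other groups, and Cont sEV lay below No sEV. The log2 fold change was 0.22 (SE 0.0343, adjusted p = 0.0715, limma with Benjamini-Hochberg adjustment) for TIS sEV against Cont sEV. LIF, another cytokine of that family, averaged 54.8 TPM with TIS sEV, 50.4 TPM with Cont sEV and 47.3 TPM with No sEV (log2 fold change 0.12 for TIS sEV against Cont sEV, adjusted p = 0.463, limma). IL7, which supports lymphocytes, averaged 2.81, 3.9 and 2.87 TPM, and FLT3LG, the ligand of FLT3 on early progenitors, 10.2, 9.47 and 9.8 TPM, in the same order of groups. IL3, THPO and TSLP were listed at 0 in all 9 libraries, and IL34, the second ligand of CSF1R, reached at most 0.053 TPM.

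The 7 genes of CSF1 shedding encode the proteases that release membrane-bound cytokines and the proteins that guide or block them, and all 7 were tested. Between TIS sEV and Cont sEV 6 of the 7 had a negative log2 fold change (median −0.05), and between TIS sEV and No sEV 2 of the 7 did (median 0.03). TIMP3, an inhibitor of ADAM17 and other metalloproteases, had 119.7, 121 and 122 TPM with TIS sEV, 134, 129 and 136 TPM with Cont sEV, and 125, 127 and 126 TPM with No sEV. The 3 groups did not overlap, in the order seen for CSF1, and the TIS sEV to Cont sEV log2 fold change was −0.14 (adjusted p = 0.155, limma with Benjamini-Hochberg adjustment). ADAM10, a sheddase, averaged 76.1, 79.6 and 74.8 TPM with TIS sEV, Cont sEV and No sEV. The iRhom gene RHBDF2 averaged 28.8, 29.8 and 26.5 TPM and the iRhom partner FRMD8 9.8, 10.8 and 9.98 TPM, in the same order, and neither passed the test.

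Of 24 genes of IL-1 and TNF signalling, the inputs that raise CSF2 and CSF3 in many cells, 20 were tested. The log2 fold change was positive in 14 of the 20 for TIS sEV against Cont sEV (median 0.05) and in 14 for TIS sEV against No sEV (median 0.04), beside 59.7% and 66.7% of all genes tested. IL1A, a cell-associated IL-1 ligand, averaged 157 TPM with TIS sEV, 148 TPM with Cont sEV and 142 TPM with No sEV (log2 fold change 0.08 for TIS sEV against Cont sEV, adjusted p = 0.458, limma). NFKBIA, which holds NF-κB in the cytoplasm and is itself an NF-κB target, averaged 209.6, 219 and 215 TPM in the same groups (−0.06, adjusted p = 0.4001, limma). The kinase genes IKBKB and CHUK, whose products release NF-κB, averaged 21.3 and 23.7 TPM with TIS sEV, 18.8 and 22.4 TPM with Cont sEV, and 19.03 and 23.04 TPM with No sEV. TNF itself stayed between 0.111 and 0.434 TPM and was not tested.

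Of 27 transcription factor genes known from CSF promoters and enhancers, 26 were tested; 19 had a positive log2 fold change for TIS sEV against Cont sEV and 22 for TIS sEV against No sEV, with medians of 0.06 and 0.07, beside 59.7% and 66.7% of all genes tested that were positive. In 9 of the 26 every TIS sEV library lay above every Cont sEV library and in none below, and all genes tested showed 10.9% and 4.47%. JUN, an AP-1 subunit, had 108, 114 and 117 TPM with TIS sEV, 98.6, 96.2 and 95.1 TPM with Cont sEV, and 104, 107 and 103 TPM with No sEV. Its log2 fold change for TIS sEV against Cont sEV was 0.23 (SE 0.0344, adjusted p = 0.063, limma with Benjamini-Hochberg adjustment).

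JUND, a second AP-1 subunit, averaged 149 TPM with TIS sEV, 114 TPM with Cont sEV and 128 TPM with No sEV (log2 fold change 0.38 for TIS sEV against Cont sEV, adjusted p = 0.0967, limma). CEBPD averaged 21 TPM with TIS sEV, 16.1 TPM with Cont sEV and 18.99 TPM with No sEV (0.36, adjusted p = 0.124, limma). CEBPB averaged 66.4, 59.2 and 62.7 TPM in the same groups (0.17, adjusted p = 0.293, limma). Both encode C/EBP factors that act at cytokine promoters. JUN, JUND, CEBPD and CEBPB had TIS sEV highest and Cont sEV lowest on average. FOS, another AP-1 subunit, named after its values were seen, had the reverse order, with 15.5 TPM with TIS sEV, 18.4 TPM with Cont sEV and 17.1 TPM with No sEV on average. Its log2 fold change for TIS sEV against Cont sEV was −0.23 (adjusted p = 0.466, limma), and the libraries of these groups overlapped.

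CSF2 was the only one of the 3 genes with an entry in the promoter table used here (RefSeq, GRCh38.p14), and its proximal promoter is shown because NF-κB and AP-1 factors are the regulators best known from it. The 120 bases before its start, chr5:132073669-132073788, plus strand, 5′ to 3′, follow, with capitals for the CK-1 core GAGATTCC and the TATA-like TATTTAA.
CSF2: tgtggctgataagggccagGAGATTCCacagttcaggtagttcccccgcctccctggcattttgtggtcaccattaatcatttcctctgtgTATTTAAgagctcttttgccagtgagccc

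The CK-1 core lies 101 to 94 bases before the start and occurs in 0.869% of 35116 promoters of 300 bases, both strands searched. TATTTAA lies 29 to 23 bases before it and occurs in 4.52%. The AP-1 letters TGANTCA were in 7.71% of promoters and the NF-κB consensus in 5.91%, and neither had an exact match in the 300 bases of CSF2. Sites that depart from these letters at any base were not searched for. The missing match therefore does not show that CSF2 lacks NF-κB or AP-1 sites. GGAAA, a core of NFAT and ETS sites, matched 3 times without overlapping the other motifs, and 61.2% of promoters hold it. A match is a string of letters, and binding was not measured here.

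All 21 genes of AU-rich mRNA decay were tested, and their median log2 fold change was 0.03 for TIS sEV against Cont sEV and 0.02 for TIS sEV against No sEV. HNRNPD, whose product AUF1 binds AU-rich elements, averaged 391 TPM with TIS sEV, 357 TPM with Cont sEV and 363 TPM with No sEV (log2 fold change 0.13 for TIS sEV against Cont sEV, adjusted p = 0.283, limma with Benjamini-Hochberg adjustment). ZFP36, which encodes the decay factor tristetraprolin, averaged 38.2, 35.2 and 37.1 TPM in the same groups (0.11, adjusted p = 0.548, limma). The deadenylase gene CNOT8 averaged 65.9, 68.5 and 68.2 TPM and the decay factor gene RC3H2 27.3, 29.3 and 26.8 TPM, in the same order.

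Genes whose 3′UTR holds the nonamer found in CSF2 were near all tested genes with an annotated 3′UTR, a set that includes them. The 1115 tested genes with it had a median log2 fold change of 0.02 for TIS sEV against Cont sEV, and 59.6% were positive, beside 0.02 and 61% for all 11898 tested genes with an annotated 3′UTR. For TIS sEV against No sEV the medians were 0.04 and 0.03, and 69.8% and 67.6% were positive. Of the 258 tested genes with at least 2 nonamers, 61.6% were positive for TIS sEV against Cont sEV and 72.1% for TIS sEV against No sEV. Their medians were 0.03 and 0.04.

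Downstream of the receptors, 22 of 24 signalling genes were tested, with a median log2 fold change of 0.01 for TIS sEV against Cont sEV and 14 of 22 positive, beside 59.7% of all genes tested. GRB2, an adaptor between receptors and RAS, had 78.7, 86.5 and 77.98 TPM with TIS sEV, 74.7, 73.04 and 74.3 TPM with Cont sEV, and 74.04, 74.2 and 73.6 TPM with No sEV. All TIS sEV libraries lay above the others, and the adjusted p was 0.335 for TIS sEV against Cont sEV (limma with Benjamini-Hochberg adjustment). SHC1, another adaptor, averaged 93.9, 99.5 and 97.9 TPM in the same groups, and the survival gene MCL1 153, 147 and 150.1 TPM. CISH, a STAT5 target that damps cytokine receptors, averaged 0.82, 1.13 and 0.962 TPM.

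Of 15 genes for chemoattractants of myeloid cells 7 were tested, and 6 of the 7 had a positive log2 fold change for TIS sEV against Cont sEV (median 0.14) and 7 of 7 for TIS sEV against No sEV (median 0.10), again beside 59.7% and 66.7%. The exception was CCL20, and the most abundant, CXCL8, differed by 0.00098 on the log2 scale for TIS sEV against Cont sEV (adjusted p = 0.998, limma), with means of 1507 TPM with TIS sEV, 1505 TPM with Cont sEV and 1480.3 TPM with No sEV; both are named after their values were seen. CXCL1, a neutrophil attractant, had 665, 687 and 678 TPM with TIS sEV, 609.7, 619.8 and 588 TPM with Cont sEV, and 575, 611 and 604 TPM with No sEV. All 3 TIS sEV libraries lay above the others, with a log2 fold change of 0.16 for TIS sEV against Cont sEV (adjusted p = 0.123, limma with Benjamini-Hochberg adjustment).

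Its near relatives CXCL2 and CXCL3 averaged 192 and 95.8 TPM with TIS sEV, 174 and 85.95 TPM with Cont sEV, and 167 and 83.6 TPM with No sEV (adjusted p = 0.365 and 0.366 for TIS sEV against Cont sEV, limma). MIF, which encodes a cytokine that acts on macrophages, averaged 630.1 TPM with TIS sEV, 568 TPM with Cont sEV and 586 TPM with No sEV (adjusted p = 0.512, limma). The 3 CXCL genes, like CSF2, were above both other groups in every TIS sEV library. Of the 7 tested genes of the list, 4 were wholly above Cont sEV and 3 wholly above No sEV. Among all genes tested these shares were 10.9% and 11.3%. Whether the 3 CXCL relatives share reads was not checked.

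**Figure D4:**
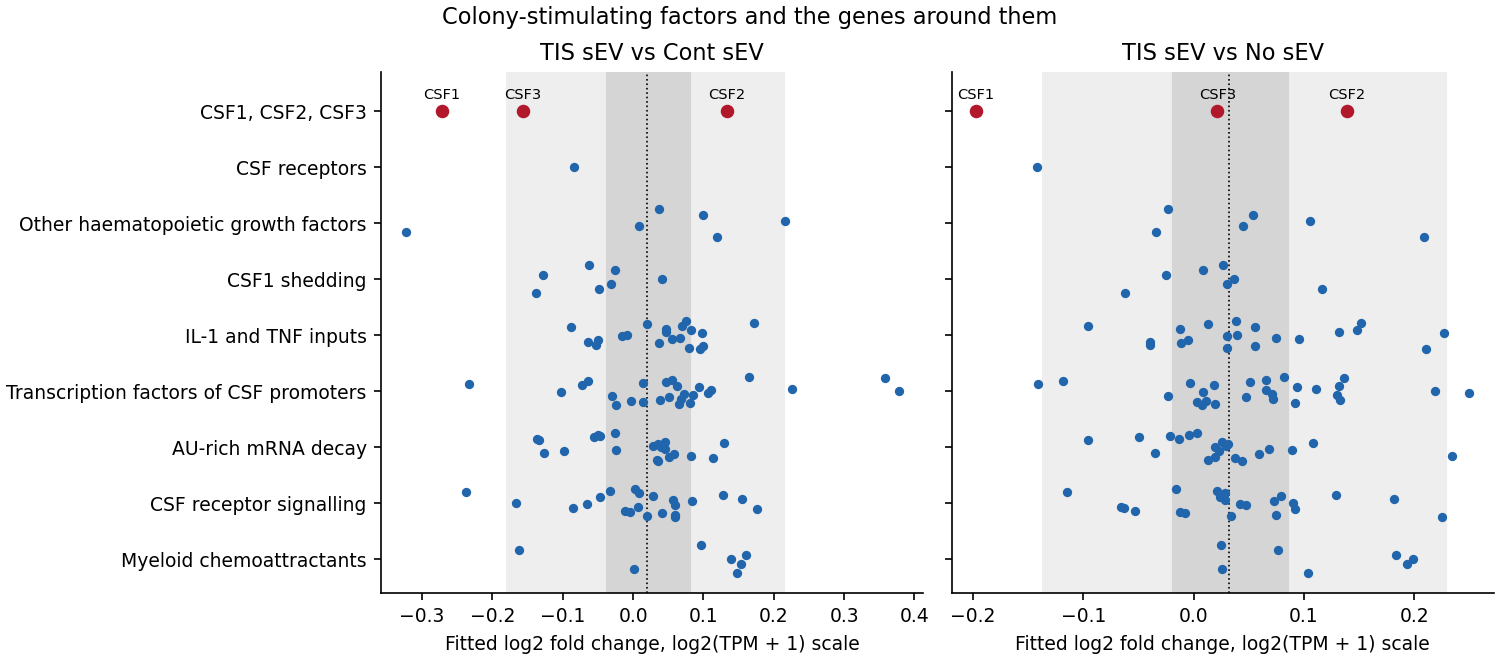
Fitted log2 fold changes on the log2(TPM + 1) scale for TIS sEV against Cont sEV (left) and TIS sEV against No sEV (right), with the 3 factors in red and each tested gene of the lists in blue; the dotted line is the median of all genes tested, dark grey their interquartile range and light grey the range between the outer 5% on either side. CSF1 lies left of the light band in both panels, and CSF2 lies inside it in both.

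The pattern of each factor over the 9 libraries was compared with that of 10478 tested genes that averaged 5 TPM or more, by Pearson's r of log2(TPM + 1). These values are a description: the libraries share their groups, so genes that differ between groups correlate. CSF1 was most like CST1 (r = 0.979) and CST4 (0.95), 2 genes of secreted cysteine protease inhibitors (cystatins), followed by the placental growth factor gene PGF (0.946), DEPP1 (0.931) and the trypsinogen gene PRSS2 (0.925). CST1 averaged 828 TPM with TIS sEV, 1146 TPM with Cont sEV and 1077 TPM with No sEV. Whether CST1 and CST4 share reads was not checked. With the group means removed, the r of CSF1 with CST1 was 0.861. For the other genes of the 5 it was lower: 0.357 for CST4, 0.50 for PGF, 0.373 for DEPP1 and 0.251 for PRSS2. Most opposite to CSF1 were RBBP8, a DNA end-resection gene (−0.971), TIMM23 (−0.965), SCO1 (−0.958), ANKRD1 (−0.956) and the mitotic ubiquitin-conjugating enzyme gene UBE2C (−0.954).

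CSF2 was most like the keratin gene KRT81 (r = 0.957 over the 9 libraries), SCRN2 (0.9499), AIFM1 (0.949), R3HDM4 (0.938) and PDLIM7 (0.927). KRT81 averaged 35.4 TPM with TIS sEV, 31.9 TPM with Cont sEV and 31.9 TPM with No sEV. The most opposite genes were HSD17B12 (−0.934), CST1 (−0.914), GTF3C6 (−0.905), CSF1 itself (−0.901) and TMEM45A (−0.897). For CSF1 and CSF2, r within groups was −0.474, and 99.6% of the 10478 genes had a higher r with CSF1 than CSF2 had.

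CSF3 was most like SERPINB8, a serine protease inhibitor gene (r = 0.926 over the 9 libraries), STIMATE (0.911), the lysosomal acid phosphatase gene ACP2 (0.911), SYNJ2 (0.906) and POU2F2-AS2 (0.901). SERPINB8 averaged 28.9 TPM with TIS sEV, 31.98 TPM with Cont sEV and 28.9 TPM with No sEV. Most opposite were TBC1D17 (−0.9701), RNF44 (−0.942), USP49 (−0.936), AMPH (−0.934) and the mitochondrial ribosome gene MRPL46 (−0.931). Between the factors themselves, r was 0.603 for CSF1 and CSF3 and −0.307 for CSF2 and CSF3, and within groups it was 0.506 and −0.0296. POU2F2-AS2 is an antisense gene and may share reads with its partner, since strand was not stated for the counting.

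**Figure D5:**
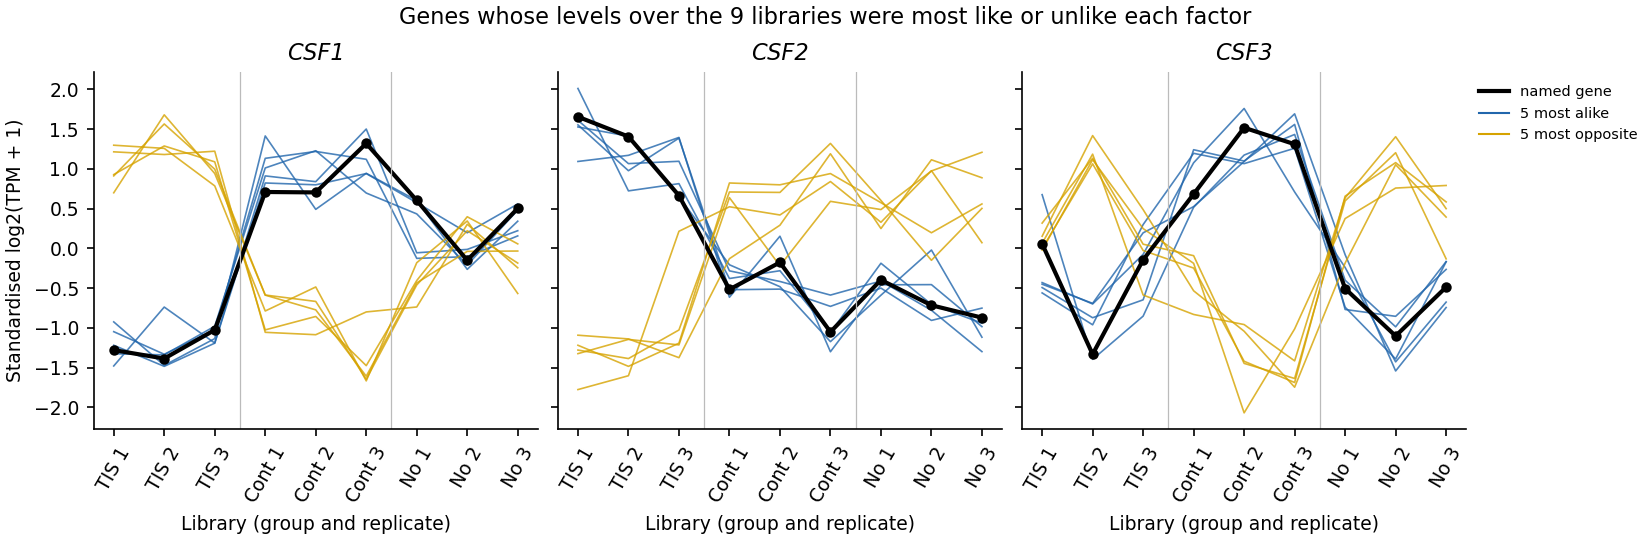
Standardised log2(TPM + 1) in the 9 libraries for each factor (black), the 5 genes most like it (blue) and the 5 most opposite (yellow), by Pearson's r. The black line is lowest in the TIS sEV libraries for CSF1, highest there for CSF2, and highest in the Cont sEV libraries for CSF3.

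The 3 genes lie on different chromosomes, and their protein-coding neighbours are given for comparison. For each factor the 5 nearest on either side were taken from GENCODE 29, and none passed the test in any comparison (limma with Benjamini-Hochberg adjustment; smallest adjusted p = 0.383). Near CSF1, the log2 fold changes of AHCYL1, GSTM1, GSTM2 and GSTM3 for TIS sEV against Cont sEV ran from 0.04 to 0.18, all above that of CSF1. The nearest, AHCYL1, 53.7 kb away, had 0.10 (adjusted p = 0.383). The GSTM genes are close relatives among which reads can be split.

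Near CSF2, 5 of 10 were tested (FNIP1, P4HA2, PDLIM4, SLC22A4 and SLC22A5), with log2 fold changes from −0.18 to 0.04 for TIS sEV against Cont sEV, all below that of CSF2. IL3, the cytokine gene 10.6 kb from CSF2, was listed at 0 in all 9 libraries. Near CSF3, 8 of 10 were tested, with log2 fold changes from −0.04 to 0.12, all above that of CSF3. MED24, a Mediator subunit gene 1.3 kb from CSF3, had −0.04, and PSMD3, a proteasome subunit gene 17.4 kb away on the other side, had 0.02.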

How the data were processed

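Total RNA of 9 libraries was sequenced. The authors deposited gene-level TPM. The submitters' processing notes name the build GRCh38.p13 and the tools Salmon 1.4.0, Trim Galore 0.6.6, FastQC 0.11.9 and DESeq2 1.28.0, without roles. No counts were used, and strand and annotation release are not given in the sources used here. Of 60719 rows, 44 second rows of genes shared by X and Y were summed into their gene. Symbols (99.6% matched) come from a separate reference list of gene names, and coordinates from GENCODE 29.

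From the TPM values, log2(TPM + 1) was fitted with limma 3.58.1 (R 4.3.3, variance trend, 9 libraries, 1 term per group, two-sided) over 13866 genes that reached 1 TPM in at least 3 libraries. Adjustment was by Benjamini-Hochberg over those genes, with a threshold of 0.05. The scale understates changes of low genes. The fit was tested on simulated data. Named were the 3 genes, all CSF receptors, up to 4 genes of smallest p in TIS sEV against Cont sEV per other list, the 5 genes most and least like each factor, and chromosomal neighbours, of which 1 is not reported here. The genes and lists were chosen with earlier results of these data known. Alternatives were other pseudocounts, filters, scalings, variance priors, library weights and subsets, the replicate number as a block, leaving out each library and, added after seeing the data, keeping the X and Y rows apart. Figures were drawn with matplotlib 3.10.9.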

Additional observations from a re-analysis of the deposited data

How the results depend on the processing

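The log2 fold changes of CSF1, CSF2 and CSF3 for TIS sEV against Cont sEV kept their signs under all alternatives run: leaving out each library in turn gave −0.29 to −0.25 for CSF1, 0.12 to 0.15 for CSF2 and −0.18 to −0.12 for CSF3, and median-of-ratios rescaling gave −0.29, 0.11 and −0.18. Against No sEV, leaving out libraries gave −0.23 to −0.18 for TIS sEV in CSF1, 0.12 to 0.16 in CSF2 and −0.0038 to 0.0626 in CSF3, and median-of-ratios rescaling moved CSF2 to 0.10. For Cont sEV against No sEV the ranges were 0.05 to 0.09 for CSF1, −0.0089 to 0.0229 for CSF2 and 0.16 to 0.20 for CSF3. The log2 CSF2 to CSF1 ratio was 0.36 to 0.44 higher with TIS sEV relative to Cont sEV and 0.32 to 0.37 higher relative to No sEV, and it was −0.0977 to −0.0264 with Cont sEV relative to No sEV.

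The number of genes called depended on the settings. For TIS sEV against Cont sEV, 13 became 2 with a constant prior variance and 3 with only the 6 libraries compared. It was 2 to 13 without 1 library: 3, 4 and 6 without TIS sEV replicate 1, 2 and 3, 2 and 3 without Cont sEV replicate 2 and 3, and 8 without No sEV replicate 1. The split of 6 higher and 7 lower became 3 and 11 with median-of-ratios rescaling and 6 and 11 with quantile normalization. Of the genes called under these 2 scalings, 10 and 12 were also called in the main fit. With no filter on low values 13 genes were again called, but 5 of them were shared with the main fit. For TIS sEV against No sEV, 1 became 9 with no filter, 0 with a constant prior variance and 2 with only the libraries compared, and 1 to 2 without 1 library (2 without TIS sEV replicate 2 or Cont sEV replicate 2). For Cont sEV against No sEV, 0 became 7 with no filter and 1 with the filter of 5 TPM, and 0 to 1 without 1 library (1 without Cont sEV replicate 2). With the filter of 5 TPM, 1 gene each was called in the growth factor list (IL11, adjusted p = 0.0493, limma) and the transcription factor list (JUN, adjusted p = 0.0415, limma) for TIS sEV against Cont sEV; over the other settings their adjusted p reached 0.298 and 0.27. Why these counts and adjusted p-values moved was not tested.

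Across all genes tested, replicate numbers showed little pairing: the deviations of same-numbered libraries from their group means correlated at −0.07 to 0.06. A pairing limited to part of the genes would not show in these values. With the replicate block, 17 genes were called for TIS sEV against Cont sEV (4 higher, 13 lower), 10 of them also called without it. It gave 1 for TIS sEV against No sEV and 0 for Cont sEV against No sEV. Unknown read depth limits the precision, and no interval from counts can be given.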
